A study of Mus musculus with 4 samples.

Results

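Genes for proteins that the fetal liver secretes, with a few of its intracellular genes, were followed across 4 arrays of embryonic mouse kidney. The list held 40 genes, and a probe belonged to it when its RefSeq accession mapped to one of them. By this rule 38 of the 40 genes had a probe, 46 probes in all, and Apoc2 and Serpina1b had none. Of the 38 genes, 34 reached a signal well above background on each array of 1 group or of both and entered the test, among 25081 genes and unnamed sequences tested in all. The 34 are those that reached this level and do not stand for the whole list: 30 reached it in both groups, 3 (Apoh, Itih3 and Serpind1) through the knockout group alone and 1 (Apoc3) through the control group alone. Apoa4, Cps1, Fetub and Mat1a were well above background on 0 arrays.

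Tamoxifen was given at E12.5 and the kidneys were dissected at E13.5, 24 hours later, from mice of a hybrid 129 and C57BL/6 background. The 2 control samples carry flox in their titles and are labelled control. The 2 knockout samples carry CreER KO in their titles and are labelled Sall1 knockout, in a series named for Sall1CreER, where CreER is a Cre recombinase that tamoxifen activates. The treatment text is the same for all 4 samples, and the labels do not say whether the controls carried CreER, whether a sample was 1 embryo or a pool, or which litter it came from. An effect of CreER and one of the loss of Sall1 therefore cannot be told apart, and the p-values rest on a spread among samples that may be technical. Each kidney sample was hybridised to a one-colour Agilent array, whose processed signal is a brightness corrected for background on that array.

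Hepatocytes are the main source of plasma proteins. They load them with lipid, hormones, iron or vitamin A, or release them as clotting factors and protease inhibitors, and at midgestation the liver is also the site where most red blood cells form. Some of these genes are known outside the liver too: the yolk sac and fetal gut make apolipoproteins and alpha-fetoprotein, and tubules of the kidney make villin, angiotensinogen and apolipoprotein M. The embryonic kidney lies close to liver and gut in the abdomen.

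Hepatocyte genes share promoter sequences read by a small set of transcription factors. The promoters below are shown because Alb, Afp, Fabp1, Fgb and Serpina1a lie at different places in the spread described further on while holding the same short motif. They are the 150 bases before the annotated start, 5′ to 3′, from RefSeq on GRCm38.p6, with the motif GTTAAT (or ATTAAC on the other strand) in capitals. Alb and Afp are neighbours on chromosome 5.
Alb, chr5:90460720-90460869, + strand: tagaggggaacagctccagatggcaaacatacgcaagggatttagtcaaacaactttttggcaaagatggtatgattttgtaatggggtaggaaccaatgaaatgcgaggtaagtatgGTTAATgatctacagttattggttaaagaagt
Afp, chr5:90490564-90490713, + strand: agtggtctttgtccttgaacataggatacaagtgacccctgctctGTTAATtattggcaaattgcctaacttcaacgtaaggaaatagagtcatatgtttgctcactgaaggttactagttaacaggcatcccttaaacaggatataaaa
Fabp1, chr6:71199729-71199878, + strand: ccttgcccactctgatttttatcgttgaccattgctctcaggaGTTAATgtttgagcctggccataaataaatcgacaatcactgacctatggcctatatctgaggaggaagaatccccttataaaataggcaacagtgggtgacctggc
Fgb, chr3:83049864-83050013, - strand: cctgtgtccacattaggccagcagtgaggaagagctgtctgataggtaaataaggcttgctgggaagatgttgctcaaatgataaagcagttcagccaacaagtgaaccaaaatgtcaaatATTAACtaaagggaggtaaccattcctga
Serpina1a, chr12:103863620-103863769, - strand: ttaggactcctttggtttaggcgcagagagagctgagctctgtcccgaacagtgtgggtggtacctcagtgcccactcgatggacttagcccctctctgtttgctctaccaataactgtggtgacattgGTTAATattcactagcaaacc

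A promoter window of 300 bases, from 250 before to 50 after the start, was at hand for 31 of the 40 genes, in 34 windows. The motif GTTAAT, searched on both strands, was in the windows of 10 genes, namely Afp, Alb, Apoc2, F2, Fabp1, Fga, Fgb, Serpina1a, Serpina1b and Vtn. That is 29.4% of the members' windows, against 7.1% of all 32851 windows. A loose form of the C/EBP site, TTGCNNAA, was in 41.2% of the members' windows and 10.8% of all windows. The forkhead site TGTTTAC was in 11.8% against 3.65%, and the TATA box TATAAA in 26.5% against 13.6%. The HNF4 site CAAAGTCCA was in 0 member windows and in 0.475% of all windows. A match describes the letters in the window and was not tied to the signals below.

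Across the whole series, the arrays were even in quality: 60.6% to 64.2% of spots were well above background, no spot was saturated, and the 75th percentile of the signal lay between 523.1 and 600.0. Sall1 itself read 2070 and 1917 on the control arrays, against 1094 and 1093 on the knockout arrays, a log2 difference of -0.75 ± 0.056 (SE, n = 2 per group; limma adjusted p = 0.125). The sources used here do not say whether its probe lies in the deleted stretch. Of 10 genes that mark embryonic kidney, 10 were well above background on all 4 arrays, among them Six2, Wt1 and Eya1, so the labelled tissue was borne out by its markers. Their levels were lower in the knockouts on balance: the median difference was -0.27, the knockouts were separated from the controls downwards for 7 of the 10 and upwards for 2 (27.4% and 21.8% of all genes and sequences), and the summed signal was 81242 and 73925 for the controls, against 56944 and 57532 for the knockouts. Cited1, a marker of nephron progenitors, gave 10100 and 10044 against 2131 and 1912. The part of these markers in the liver gene differences was not tested. Signals in the text are the processed values as deposited, in arbitrary units. Differences are on the log2 scale, knockout minus control, after each array was divided by its 75th percentile, and are tested with limma over all 25081 genes and sequences with Benjamini-Hochberg adjustment.

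The liver genes were higher in the knockout kidneys than in the controls, but the 2 control arrays also differed from each other. Over the 34 tested members the median log2 difference was 1.57, against -0.011 over all genes and sequences tested. Both knockout values lay above both control values for 31 members, below them for 0, and the groups overlapped for 3 (Agt, Apom and Mttp). Over all genes and sequences 21.8% were separated in this direction. Apoc1, Apoc3, F10 and Vil1 were among the 31 only after scaling. A difference of at least 1.5-fold without overlap was seen for 26 members in the higher and 0 in the lower direction, beside 2.5% and 1.04% of all genes and sequences. The shares of 21.8% and 2.5% also stand beside the counts by role given below. The 3 genes that entered through the knockout group alone passed a filter that favours a higher knockout signal. The 30 members well above background on all 4 arrays were therefore also taken alone. Their median was 1.54, with 23 at least 1.5-fold higher without overlap. Over all genes and sequences at this level the median was -0.010, with 436 of 23864 at least 1.5-fold higher without overlap. With normexp background correction the median over the tested members was 1.01.

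In limma 0 of the 34 members passed at an adjusted p under 0.05, as for 0% of all genes and sequences, and the members' adjusted p ran from 0.177 to 0.812. At an unadjusted p under 0.05 there were 19 members higher and 0 lower, where the share over all genes and sequences was 6.85% for higher and 5.84% for lower. The count of higher members was 14 to 27 under the alternatives that kept all arrays. With a variance prior that follows the signal, 3 members passed: Trf (adjusted p = 0.0109), Apoa2 (0.0369) and Kng1 (0.0477), beside 0.538% of all genes and sequences called higher. These 3 genes are among those whose control arrays lay close together, which a small p favours. In bulk samples of this kind, fewer cells of a type and less RNA per cell cannot be told apart.

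**Figure D1:**
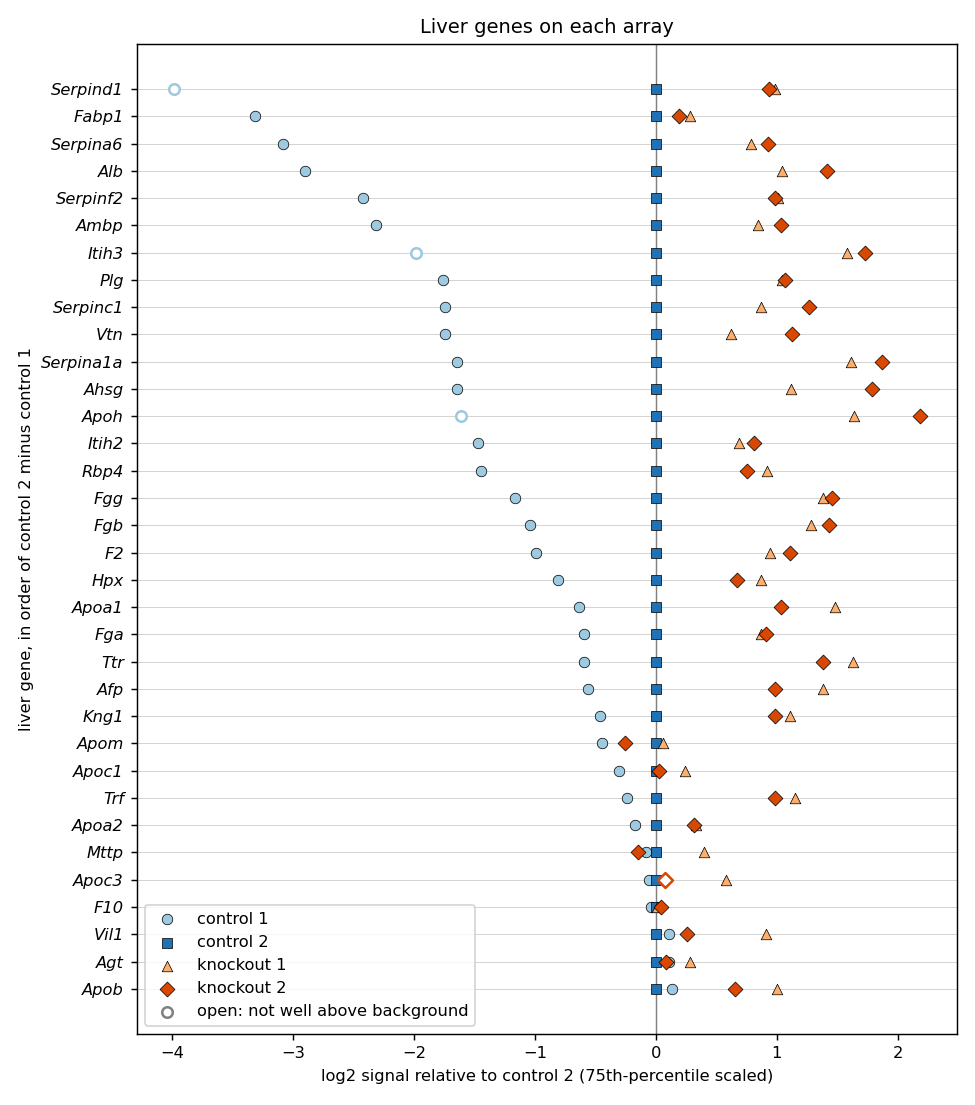
Log2 signal of the 34 tested liver genes on each of the 4 arrays, relative to control replicate 2 of the same gene and after scaling to the 75th percentile of the array (x axis), with genes (y axis) in order of the difference between the control arrays. Control replicate 1 (pale circles) runs from beside control replicate 2 at the bottom to 3.32 below it for Fabp1, open symbols (Serpind1, Itih3 and Apoh in control replicate 1, Apoc3 in knockout replicate 2) are signals not well above background, whose positions have no order, and both knockout arrays lie together on the right for most genes.

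The carrier proteins of plasma were separated without overlap in every one of the 8 tested members, with Fetub, which encodes fetuin B, not well above background. Alb encodes albumin, the main protein of plasma. Its signals were 102 and 698.7 on the control arrays, against 1399 and 1779 on the knockout arrays. Both knockout values were the higher ones, but the control values were 7.48-fold apart, and the difference of 2.68 ± 1.06 (SE, n = 2 per group) did not pass (limma adjusted p = 0.427). Afp encodes alpha-fetoprotein, the albumin of fetal life and the neighbour of Alb. Its signals were 3177 and 4302 in the controls and 10902 and 8113 in the knockouts. Here the control values were 1.48-fold apart, and the group difference was 1.46 ± 0.26 (SE, n = 2 per group; limma adjusted p = 0.246).

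Trf, which encodes the iron carrier transferrin, gave 1450 and 1563 in the controls and 3387 and 2942 in the knockouts. Its 2 controls were the closest of any carrier gene, 1.18-fold apart, and its difference of 1.19 ± 0.12 (SE, n = 2 per group; limma adjusted p = 0.177) had the smallest p of any member. The second Trf probe, with signals of 622, 799.4, 1553 and 1385 in the same order of arrays, differed by 1.17. Ttr, which encodes transthyretin, the carrier of thyroid hormone and of retinol-binding protein, gave 90.7 and 125.3 against 378.4 and 311.3. Rbp4, the retinol-binding protein that Ttr carries, gave 345 and 858.5 against 1584 and 1378. The control arrays were thus 1.51-fold apart for Ttr and 2.72-fold apart for its partner.

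The remaining carriers followed Alb in having control replicate 1 far below control replicate 2. Ambp, which encodes alpha-1-microglobulin and bikunin, gave 179 and 817 in the controls and 1426 and 1590 in the knockouts. Ahsg, which encodes fetuin A, gave 115 and 328.5 against 692.9 and 1079. Hpx, which encodes the haem carrier hemopexin, gave 39.0 and 62.6 against 111.5 and 95.0. For these 3 genes the knockout mean was 1.91-fold, 2.73-fold and 1.71-fold above control replicate 2 alone.

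The genes of lipoproteins, the particles that carry lipid in blood, were divided. Of 10 listed, 8 were tested, their median difference was 0.38, and 3 were at least 1.5-fold higher without overlap. Apoa1, the main protein of high-density lipoprotein, gave 42.7 and 60.3 in the controls and 163.3 and 118 in the knockouts, a difference of 1.57 ± 0.28 (SE, n = 2 per group; limma adjusted p = 0.253). Apob, the structural protein of low-density lipoprotein, gave 58.9 and 49.1 against 95.7 and 73.7, and its second probe 24.5 and 27.5 against 73.8 and 57.3. Apob was higher in both knockout arrays, and its control arrays were 1.10-fold apart with control replicate 2 the lower one, unlike most members. Apoh, which encodes beta-2-glycoprotein I, gave 10.6 and 29.7 against 90.3 and 128.6, with the first control value not well above background. Its knockout mean was 3.77-fold above control replicate 2.

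Other lipoprotein genes differed little. Apoc1, a small protein of several lipoproteins, gave 966 and 1093 in the controls and 1261 and 1063 in the knockouts, a difference of 0.29 ± 0.15 (SE, n = 2 per group; limma adjusted p = 0.481), and its groups overlapped before the arrays were scaled. Apoc3, an inhibitor of lipoprotein lipase, gave 23.2 and 22.1 against 32.2 and 22.2. Its groups also overlapped before scaling, and its separation after scaling depends on the last value, which was not well above background. Apoa1, Apoc3 and Apoa4 are neighbours in the genome. Of these Apoa1 was at least 1.5-fold higher, Apoc3 read near the background, and Apoa4, well above background on 0 arrays, was not tested. Mttp, the transfer protein that loads Apob with lipid, gave 84.4 and 81.7 against 104.7 and 70.2, and Apom, the carrier of sphingosine 1-phosphate, gave 445 and 554 against 561.8 and 441.9. After scaling, knockout replicate 2 lay below both controls for Mttp and between them for Apom.

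Apoa2, the second protein of high-density lipoprotein, was read by 2 probes that disagreed in size. The brighter gave 2950 and 3049 in the controls and 3734 and 3623 in the knockouts, a difference of 0.41 ± 0.083 (SE, n = 2 per group; limma adjusted p = 0.279). The dimmer gave 184 and 413 against 840.7 and 816.2, a difference of 1.71, with the control arrays 1.29 apart on the log2 scale against 0.17 for the brighter probe. Both probes had both knockout values above both control values. Which of them reads the Apoa2 transcript more faithfully was not tested.

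The clotting and fibrinolysis genes had a median difference of 1.91 over 10 tested members, of which 9 were at least 1.5-fold higher without overlap. Leaving out control replicate 1 gave a median of 1.04, and leaving out control replicate 2 gave 2.49. The 3 fibrinogen chains, which assemble into the clot-forming protein and whose genes are neighbours, were alike. Fga gave 20.6 and 28.5 in the controls and 50.7 and 51.1 in the knockouts. Fgb gave 84.8 and 159.6 against 378.5 and 410.4. Fgg gave 76.9 and 157.7 against 400.5 and 411.9. Their differences were 1.19 ± 0.22, 1.88 ± 0.38 and 2.00 ± 0.43 (SE, n = 2 per group), with limma adjusted p of 0.270, 0.281 and 0.289.

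F2, which encodes prothrombin, gave 59.8 and 108.7 in the controls and 204.2 and 222.7 in the knockouts. Plg, which encodes plasminogen, the precursor of the enzyme that dissolves clots, gave 16.0 and 49.7 against 99.9 and 99.4. Serpinc1, antithrombin, gave 32.8 and 100.9 against 179.5 and 231.4. Each of the 3 had the order control replicate 1, control replicate 2, then both knockout arrays.

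Serpinf2, antiplasmin, gave 57.1 and 279.5 in the controls and 547.8 and 526.8 in the knockouts. Serpind1, heparin cofactor II, gave 4.19 and 60.8 against 117 and 111, and its first control value was not well above background. The control values were 5.35-fold apart for Serpinf2 and, with control replicate 1 set to the lowest signal well above background on that array, at least 4.20-fold apart for Serpind1. The fitted differences were 2.21 ± 0.88 and 2.95 ± 1.45 (SE, n = 2 per group; limma adjusted p = 0.428 and 0.476), and that of Serpind1 was 2.00 at this bound. Against control replicate 2 alone the knockout means were 2.00-fold and 1.95-fold higher.

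Kng1, which encodes kininogen, gave 201 and 253.3 in the controls and 531.2 and 477.4 in the knockouts, a difference of 1.28 ± 0.18 (SE, n = 2 per group; limma adjusted p = 0.216). Its second probe was well above background on 1 knockout array only. F10, coagulation factor X, was read by 2 probes that disagreed. The brighter, the sixth brightest of all probes, gave 342000 and 322460 in the controls and 317036 and 316086 in the knockouts, a difference of 0.049 ± 0.057 (SE, n = 2 per group; limma adjusted p = 0.734). It counts among the separated members only after scaling, since its raw knockout signals were the lower ones. The dimmer gave 34.7 and 62.9 against 93.5 and 97.7, a difference of 1.15, in the same order of arrays as the other clotting genes. Whether the brighter probe reads F10 was not tested, and with the dimmer probe in its place, an alternative added after seeing the data, 27 members were at least 1.5-fold higher without overlap.

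Among the other protease inhibitors and plasma proteins, 5 of 6 tested members were at least 1.5-fold higher without overlap and the median difference was 2.07, or 0.86 without control replicate 1 and 3.01 without control replicate 2. Serpina1a, one of the alpha-1-antitrypsin genes, gave 261 and 748.5 in the controls and 2236 and 2609 in the knockouts, a difference of 2.57 ± 0.61 (SE, n = 2 per group; limma adjusted p = 0.312). The mouse has several near-identical copies of this gene, so a probe may read more than 1 of them. Probes named for Serpina1c, Serpina1d and Serpina1e differed by 2.59, 2.54 and 2.51. Serpina6, which encodes the carrier of corticosteroids, gave 77.4 and 600.0 against 1006 and 1088, with the controls 8.47-fold apart, and its second probe gave 8.18 and 109.3 against 180.1 and 175.

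Itih2 and Itih3, heavy chains that bind bikunin and stabilise hyaluronan, gave 35.5 and 90.1 against 141 and 150.9, and 8.55 and 30.9 against 90.0 and 97.5. Vtn, vitronectin, gave 28.4 and 87.3 against 130.2 and 180.9. All 3 followed the order of Alb. Agt, angiotensinogen, did not: it gave 58.2 and 49.4 in the controls and 58.5 and 49.9 in the knockouts, a difference of 0.13 ± 0.098 (SE, n = 2 per group; limma adjusted p = 0.603).

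Of the 4 intracellular genes, 2 were tested. Fabp1, the fatty acid-binding protein of liver and gut, gave 22.9 and 208.8 in the controls and 247.5 and 226.6 in the knockouts. The second control value was close to both knockout values and the first was 9.96-fold below the second, so the difference of 1.89 ± 1.20 (SE, n = 2 per group; limma adjusted p = 0.545) rested on control replicate 1. Without that array it was 0.24. Vil1, villin of the brush border, gave 23.8 and 20.2 against 37.0 and 23.1, and its difference of 0.53 rested largely on knockout replicate 1. Its groups overlapped before the arrays were scaled. Cps1 and Mat1a, enzymes of the urea cycle and of methionine metabolism, were well above background on 0 arrays.

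The spread within groups was then set against the difference between them. The median of control replicate 2 minus control replicate 1 over the 34 tested members was 1.01, against 0.016 over all genes and sequences tested, and the median of knockout replicate 2 minus knockout replicate 1 was -0.017. With normexp correction the median between the controls was 0.46. Control replicate 2 was at least 1.5-fold above control replicate 1 for 22 members and at least 1.5-fold below it for 0, beside 2.39% and 2.23% of all genes and sequences. The knockout arrays were within 1.5-fold of each other for 32 members, the exceptions being Ahsg, with knockout replicate 2 higher, and Vil1, with it lower, beside 1.91% and 1.84% of all genes and sequences. Control replicate 1 was the lowest of the 4 arrays for 30 members, where the share over all genes and sequences was 25%. The full order of control replicate 1, control replicate 2 and both knockout arrays held for 29 members, beside 10.8%.

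The difference between the group means was larger than the larger of both within-group differences for 21 of the 34 tested members, all in the higher direction. Over all genes and sequences the share was 15.7% in the higher and 35.8% in either direction. Of the other 13 members, the control arrays gave the larger spread for 9 (Alb, Ambp, Apoc1, Apom, Fabp1, Serpina6, Serpind1, Serpinf2 and Vtn) and the knockout arrays for 4. With control replicate 1 of Serpind1, Apoh and Itih3 set to the same bound, Serpind1 remained among the 13 and the other two among the 21. The standard error had a median of 0.38 over the members and 0.079 over all genes and sequences tested. Under the alternatives that kept all arrays, the count of 21 ran from 19 with median centring to 26 with normexp correction. The 13 members named are those of the main processing.

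**Figure D2:**
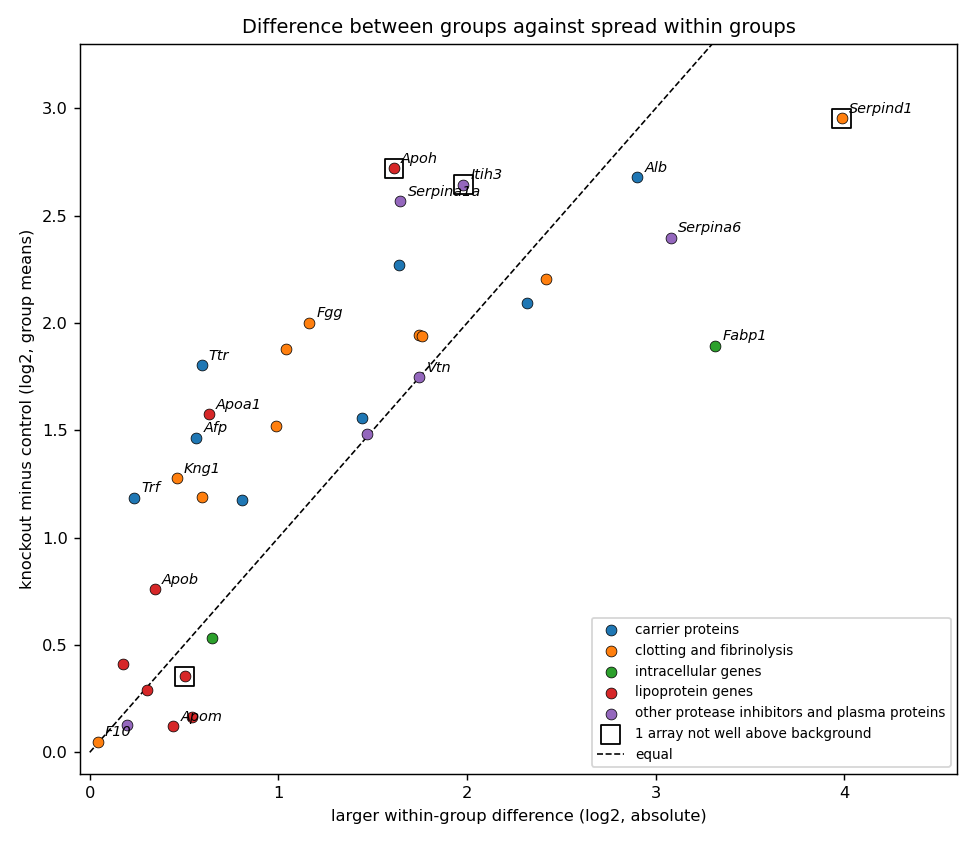
Difference between the group means (y axis, log2, knockout minus control) against the larger of both within-group differences (x axis, log2, absolute) for the 34 tested liver genes, coloured by role. Points above the dashed line, 21 in all, have a difference between groups that exceeds the spread within them, and Fabp1, Serpina6 and Alb lie below it at within-group differences of 3.32, 3.08 and 2.90. Squares mark the 4 genes with 1 array not well above background, and Serpind1 among them would lie at 2.07 on the x axis and 2.00 on the y axis at its bound.

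The members form a range by how far apart the control arrays were. For 12 of them (Afp, Agt, Apoa2, Apob, Apoc1, Apoc3, Apom, F10, Kng1, Mttp, Trf and Vil1) the controls were under 1.5-fold apart. The median difference between groups was 0.38 over these 12, and 4 of them, Afp, Apob, Kng1 and Trf, were at least 1.5-fold higher without overlap. For the other 22 the median difference was 1.94, and their controls were from 1.51-fold to 9.96-fold apart where both were well above background. For Serpind1, Itih3 and Apoh they were at least 4.20-fold, 2.14-fold and 2.05-fold apart. The limit between both sets has no gap at it: Afp at 1.48-fold lay just inside, Fga and Ttr at 1.51-fold just outside. The differences share the control arrays with the split and are given as a description.

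Each control array was also left out in turn. Without control replicate 1 the median difference over the tested members was 0.95, and without control replicate 2 it was 2.16. Alb was 2.34-fold higher without control replicate 1 and 17.5-fold higher without control replicate 2. Afp was 2.27-fold and 3.36-fold higher, and Trf 2.10-fold and 2.47-fold higher. Against control replicate 2 alone, the knockout mean of the members ran from 0.934 of the control value (Apom, the 1 member that was lower) to 3.77-fold (Apoh). Over all genes and sequences the median log2 difference against that array was -0.024.

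Genes outside the list that the liver is known to express were counted next. Of 40 further plasma protein genes, 27 were tested, and 12 were well above background on 0 arrays. Their median difference was 0.80, with 16 at least 1.5-fold higher without overlap, 0 lower, and 16 higher at an unadjusted p under 0.05. The shares over all genes and sequences were 2.5%, 1.04% and 6.85%. In limma 0 passed at an adjusted p under 0.05. Gc, the vitamin D-binding protein, gave 56.0 and 70.2 in the controls and 243.5 and 235.2 in the knockouts, a difference of 2.05 ± 0.17 (SE, n = 2 per group; limma adjusted p = 0.145). Itih4 gave 24.7 and 26.1 against 57.1 and 55.4, and Lcat, which esterifies cholesterol in plasma, 45.3 and 42.3 against 71.8 and 64.1. The control arrays were 1.37-fold, 1.16-fold and 1.02-fold apart for these 3 genes. They were named for the smallest unadjusted p of their list, which favours close replicates. Pzp gave 16.5 and 51.2 against 115.6 and 141.1 and F12, coagulation factor XII, 4.18 (not well above background) and 29.4 against 43.7 and 44.6, in the order seen for Alb.

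Hepatocyte enzymes and transporters had a smaller median difference of 0.14 over 14 tested of 26, and 10 of the 26 were well above background on 0 arrays. Bhmt, of methionine metabolism, gave 33.3 and 47.9 in the controls and 67.1 and 58.9 in the knockouts. Arg1, the arginase of the urea cycle, ran the other way with 259 and 243.6 against 150.4 and 139.3, a difference of -0.68 ± 0.063 (SE, n = 2 per group; limma adjusted p = 0.168).

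Of 14 transcription factors of hepatocytes, 8 were tested, and their median difference was 0.32. Foxa1, a forkhead factor of endoderm and also of the urinary tract epithelium, gave 127 and 104.5 in the controls and 256.1 and 238.1 in the knockouts, a difference of 1.22 ± 0.082 (SE, n = 2 per group; limma adjusted p = 0.113). Hnf4a, a nuclear receptor of hepatocytes and of the proximal tubule, gave 174 and 243.7 against 369.7 and 359.4. Cebpa, a factor of the C/EBP family, gave 51.8 and 63.1 against 57.8 and 58.1. Foxa3, Nr1h4, Onecut1 and Prox1 were well above background on 0 arrays, and Foxa2 and Nr0b2 on 1 array each. By unadjusted p under 0.05, 5 of this list were higher and 0 were lower, beside 6.85% and 5.84% of all genes and sequences.

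Markers of other cells that a piece of liver, gut or body wall would bring moved in different ways, and their part in the liver gene differences was not tested. Of 13 erythroid genes 12 were tested and Ahsp had no probe, and their median difference was 0.27, with 0 at an unadjusted p under 0.05. Their summed signal was 23964 and 34054 for the controls, against 25081 and 32851 for the knockouts. Hemgn was the largest part of each sum and varied little, with 17300 and 15360 against 16889 and 14827. Replicate 2 was at least 1.5-fold above replicate 1 for 10 of the 12 in the controls and 8 in the knockouts. The shares over all genes and sequences were 2.39% and 1.91%. Alas2, the haem synthesis enzyme of red cells, gave 2670 and 8268 in the controls and 3254 and 8218 in the knockouts, so knockout replicate 1, where Alb was high, stood near control replicate 1. Klf1 gave 67.7 and 201.6 against 204.7 and 222.3.

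Skeletal muscle genes had a median difference of 1.34 over 14 tested of 15, with Ckm well above background on 0 arrays, but their control order was the reverse of that of Alb. Control replicate 2 was at least 1.5-fold below control replicate 1 for 13 of them, and the summed signal was 20006 and 6988 for the controls, against 32650 and 20981 for the knockouts. Of 6 liver macrophage genes 2 were tested: Cd5l gave 8.39 (not well above background) and 41.5 against 45.6 and 49.6, and Marco 101 and 142.6 against 132.9 and 154, while Clec4f, Spic, Timd4 and Vsig4 were well above background on 0 arrays. Summed over both, the signal was 109.4 and 184.1 for the controls, against 178.5 and 203.6 for the knockouts. The 5 genes of liver sinusoidal endothelium had a median of 0.56, and Stab2 gave 433 and 424.5 against 604.4 and 561.4. Their summed signal was 630.6 and 555.7 for the controls, against 833.1 and 766.9 for the knockouts.

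Of 7 markers of intestinal epithelium 4 were tested, with a median of 0.17 and a summed signal of 605.1 and 658.6 for the controls, against 626 and 644.5 for the knockouts, and Cdx2, Cdh17 and Isx were well above background on 0 arrays. Most of that sum was Gpa33, with 494 and 509.5 against 496.5 and 523.9. Of 8 pancreas genes 4 were tested, with a median of 0.090, and Pdx1, Ptf1a, Neurog3 and Gcg were well above background on 0 arrays. Their summed signal was 749.9 and 801.7 for the controls, against 749.3 and 743.7 for the knockouts. The median and the sums join pancreas genes that moved apart. Cpa1 gave 400 and 418.5 in the controls and 117.8 and 126.6 in the knockouts, a difference of -1.63. Nkx6-1 gave 72.2 and 111.9 against 374.1 and 356.5, a difference of 2.14 in the array order of Alb for the controls. Ins2 and Rbpjl differed by 0.016 and 0.16. Adrenal cortex genes had a median of -0.043 over 6 tested of 7 (Cyp11a1 was well above background on 0 arrays), with a summed signal of 5132 and 5435 for the controls, against 5264 and 6931 for the knockouts. Most of that sum was Cyp17a1, with 4240 and 4343 against 4503 and 6163.

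Proximal tubule genes, some of which liver cells also express, had a median difference of 0.30 over 16 tested of 21. At an unadjusted limma p under 0.05, 8 were higher and 2 lower, beside 6.85% and 5.84% of all genes and sequences. At least 1.5-fold without overlap, 4 were higher and 1 lower, beside 2.5% and 1.04%. The summed signal of the list was 5792 and 4743 for the controls, against 6533 and 6181 for the knockouts. Most of that sum was Anpep, with 3730 and 2974 against 3875 and 3833. Pdzk1, a brush border scaffold protein with the smallest unadjusted p of this list, gave 142 and 132.1 in the controls and 417.6 and 368.6 in the knockouts. The 5 members listed here as genes of kidney epithelium too (Agt, Apom, Fabp1, Kng1 and Vil1) had a median difference of 0.53, with 2 of them, Fabp1 and Kng1, at least 1.5-fold higher without overlap. Whether mouse kidney epithelium makes each of them was not tested. The median of these 5 was 0.24 without control replicate 1.

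**Figure D3:**
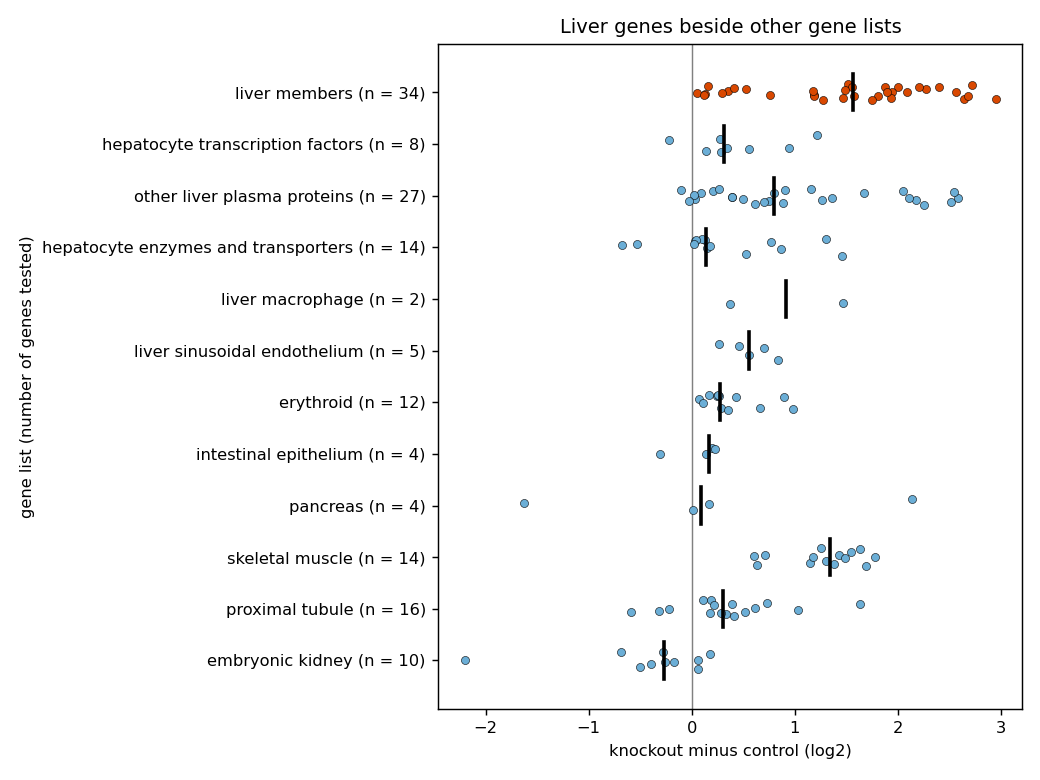
Log2 difference, knockout minus control (x axis), of each tested gene in the liver list and in 11 other lists (y axis), with a bar at the median. The liver members are centred on 1.57, skeletal muscle on 1.34, further plasma proteins on 0.80 and the erythroid genes on 0.27.

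Several of these medians moved with the control array left out. Without control replicate 1 they were -0.48 for erythroid, 1.93 for skeletal muscle, 0.084 for hepatocyte enzyme, -0.096 for intestinal and -0.21 for adrenal genes. Without control replicate 2 they were 1.09, 0.51, 0.16, 0.25 and 0.079 in the same order, and 0.37 for sinusoidal endothelium.

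The lists also differed in their order over the arrays. After each gene was centred on its mean over the 4 arrays, the liver members had medians of -1.36 and -0.13 for the controls and of 0.79 and 0.79 for the knockouts. Erythroid genes had -0.97 and 0.69 for the controls and -0.22 and 0.66 for the knockouts, and skeletal muscle genes 0.088 and -1.27 against 0.97 and 0.39. Proximal tubule genes had -0.13 and -0.22 against 0.28 and 0.15.

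**Figure D4:**
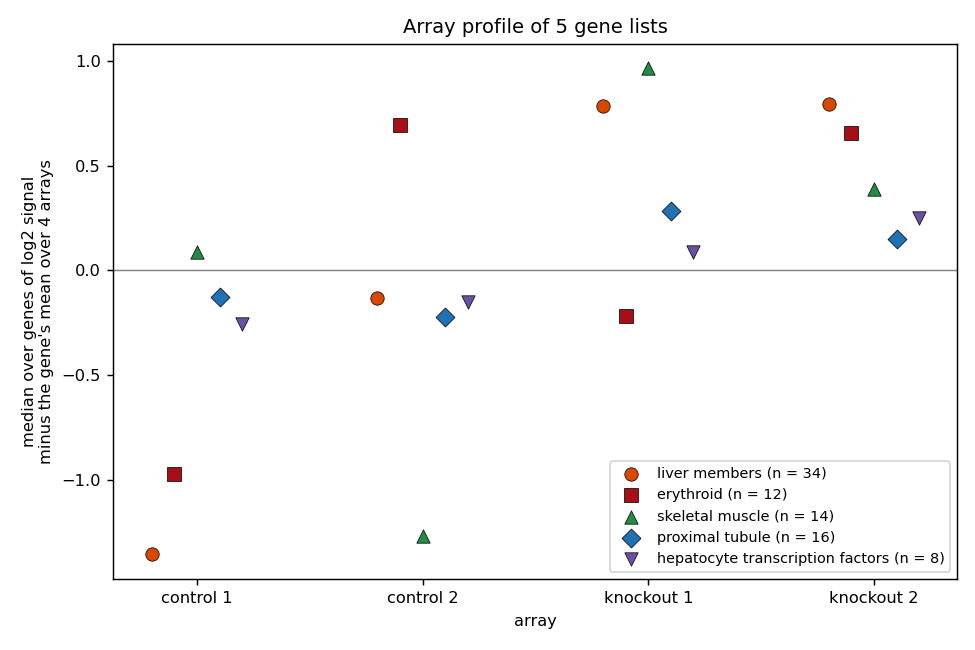
Median over the genes of 5 lists of the log2 signal minus the gene's mean over the 4 arrays (y axis) on each array (x axis), with the number of tested genes in the legend. Liver members are lowest on control replicate 1 at -1.36, erythroid genes are high on control replicate 2 and knockout replicate 2, and skeletal muscle genes are lowest on control replicate 2 at -1.27.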

How the data were processed

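RNA of 2 control and 2 Sall1 knockout kidney samples, 0.25 µg each, was labelled with Cy3 and hybridised, per the labels' protocols. The genotype label gave each sample its group, and replicate numbers follow sample order. Feature Extraction 10.7.3.1 produced the deposited scanner tables, for design 028005 annotated on mm9, per the file headers. The processed signal, an intensity, was corrected for background within each array and not scaled between arrays, per the file headers. The 4 arrays shared 1 slide and 1 scan.

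Control and outlier spots were left out, spots of a probe were averaged, and log2 signals were taken after division by each array's 75th percentile. RefSeq accessions in a table of GRCm38.p6 gave symbols to 26407 of 55681 probes. The brightest probe stood for a gene, and 8 members had several. Limma 3.58.1 in R 4.3.3 compared the groups (lmFit, eBayes, two-sided) after a check on simulated data. A permutation test of 2 against 2 arrays cannot reach 0.05, and precision is limited by how few arrays there are. The members, lists and tests were chosen with earlier results of these data known. The text names Sall1, every member and, of the other lists, up to 4 genes each by largest signal and by smallest unadjusted p, and those never above background, which are given as counts for plasma protein and enzyme genes and left out for proximal tubule genes. Cebpa, F12, Foxa2, Nr0b2, Pzp and Serpina1d fall outside this rule and were chosen after their values were seen. Tried as alternatives were normexp correction (offset 50), quantile normalization, centring on the median, other background filters, keeping outlier spots, averaging probes, the deposited value table (equal to the scanner intensity within 1% for 100% of 55249 single-spot probes), leaving out each array, a trended robust prior, limits of 2-fold and of an adjusted p of 0.1, and, added after seeing the data, the dimmer F10 probe.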

Additional observations from a re-analysis of the deposited data

How the results depend on the processing

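The median difference of the liver genes lay between 1.01 (normexp correction) and 1.57 under the alternatives that kept all arrays, and between 0.95 (without control replicate 1) and 2.16 (without control replicate 2) with an array left out. The count of liver genes at least 1.5-fold higher without overlap was 23 to 28 under all alternatives. With a trended and robust prior limma called 3 members (Apoa2, Kng1 and Trf), and 0 under each other alternative. The count at an unadjusted p under 0.05 was 11 to 27 with an array left out, 11 without either knockout array, 25 without control replicate 1 and 27 without control replicate 2, and the cause was not tested. The median difference between the knockout arrays turned from -0.017 to 0.012 with median centring. Of the 34 tested members, 32 kept their direction in every alternative. The others were Apom, from -0.099 (without control replicate 1; -0.034 without Sall1 knockout replicate 1) to 0.34 with an array left out, and Mttp, from -0.11 (without Sall1 knockout replicate 1) to 0.44. The cause was not tested. With F10 read by its dimmer probe, chosen after seeing the data, 27 members were at least 1.5-fold higher without overlap. No paired analysis was possible because the labels give the groups no shared replicate numbers. Signals of members near the background, such as Apoh, Itih3 and Serpind1 in control replicate 1, are bounds rather than levels.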
